A study of Mus musculus with 2 samples.

Results

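The SPARC family is a group of 7 secreted matrix genes in the mouse, *Sparc*, *Sparcl1*, *Smoc1*, *Smoc2*, *Spock1*, *Spock2* and *Spock3*. All 7 symbols were among the 23628 genes with values in RNA-sequencing of SOX9-GFPhi chondrospheres. The group was chosen by the level of *Sparc*, the third highest gene by mean, so the high level of *Sparc* is a description of why it is here and not a finding.

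The samples were 2 libraries of a single condition, SOX9-GFPhi replicate 1 and replicate 2. They came from femoral head chondrocytes of SOX9-GFP pups at postnatal day 7, in which an EGFP cassette placed behind *Sox9* reports its expression. Both libraries carried this reporter, and both came from cells sorted for the highest GFP signal and for the absence of CD31, Ter119 and CD45. The cells were grown at low density in methylcellulose at reduced oxygen, with FGF2, BMP4, IGF1, LIF and TGF-β1 in the medium, where single cells form colonies named chondrospheres. No untreated, unsorted or freshly isolated library was analysed here, so no test between groups could be made and no p-value is given. The methods describe each pup as a biological replicate, but the labels do not tie a library to a pup, and each SD below is the spread between these 2 libraries, which may be technical.

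SPARC, also known as osteonectin or BM-40, is a calcium-binding glycoprotein that binds fibrillar collagens and basement membrane collagen IV and is abundant in bone and in tissue under remodelling. Members of the family share a follistatin-like domain and an extracellular calcium-binding domain. SPARCL1, or hevin, is the nearest relative of SPARC and is known from blood vessels and from astrocytes in the brain. The SMOCs are matrix and basement membrane proteins that bind heparan sulphate and modulate BMP signalling. The testicans, encoded by the *Spock* genes, are proteoglycans best known from brain, and some of them inhibit cathepsin L or membrane-type matrix metalloproteinases.

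Values were counts scaled to a common library total, CPM, without a correction for gene length. The step between low values was 0.0231 and 0.0237 CPM in replicates 1 and 2, so that 1 CPM stood for 43.3 and 42.1 reads on genes. A level of 3 reads, taken as the lowest that this depth can show, was 0.0693 and 0.0712 CPM, and it covers counting error only. All 12 chondrocyte markers, such as *Sox9*, *Col2a1* and *Acan*, had a mean of at least 10 CPM. They summed to 186886 and 130204 CPM in replicates 1 and 2, mostly *Col2a1* (148953 and 100682 CPM). Of these 12, 2 differed more than 2-fold between the libraries (15.1% of all genes), both lower in replicate 2. The larger difference was in *Matn3*, with 741 and 53.1 CPM. None of 8 endothelial markers reached a mean of 1 CPM, and *Cdh5*, *Kdr*, *Tek*, *Emcn* and *Cldn5* were listed at 0 in both libraries. Markers of osteoblasts and osteocytes summed to 6.38 and 55.0 CPM in replicates 1 and 2, of which *Dmp1* was the highest gene in the latter library. The 10 highest genes held 43.4% of all CPM in one library, replicate 1, and 34.7% in the other, so the CPM of every other gene depends on them. Of all genes, 53.5% averaged 1 CPM or more.

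The coding sequences show how far 50-base reads can tell the members apart. The stretches below are the 90 bases, lying within 1 exon in each gene, where the coding sequences of the closest pairs were most alike. Capitals mark bases that are identical between the 2 genes of a pair, and each sequence reads 5′ to 3′ in the direction of transcription (GRCm38, GENCODE M21 transcripts). *Sparc* is shown from exon 6, chr11:55401951-55402040 on the minus strand, and *Sparcl1* from exon 7, chr5:104088397-104088486 on the minus strand.
Sparc: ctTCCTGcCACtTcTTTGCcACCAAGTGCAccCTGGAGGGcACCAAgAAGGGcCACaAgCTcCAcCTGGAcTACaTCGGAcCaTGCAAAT
Sparcl1: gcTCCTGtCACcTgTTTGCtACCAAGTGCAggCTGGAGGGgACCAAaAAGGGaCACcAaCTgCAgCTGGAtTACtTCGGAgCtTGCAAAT
In this window 71 of the 90 bases were identical. *Smoc1* and *Smoc2* are both shown from exon 8, at chr12:81167579-81167668 and chr17:14368974-14369063, each on the plus strand.
Smoc1: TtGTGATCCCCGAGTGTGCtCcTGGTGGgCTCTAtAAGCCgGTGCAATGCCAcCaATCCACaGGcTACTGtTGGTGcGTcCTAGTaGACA
Smoc2: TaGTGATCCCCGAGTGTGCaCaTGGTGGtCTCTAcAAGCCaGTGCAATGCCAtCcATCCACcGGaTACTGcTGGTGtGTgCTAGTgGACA
Here 76 of the 90 bases were identical. The longest run of identical bases was 14 between the coding sequences of *Sparc* and *Sparcl1* and 33 between those of *Smoc1* and *Smoc2*, both shorter than a read. Over their best local alignments, *Sparc* and *Sparcl1* were 72.1% identical across 545 bases and *Smoc1* and *Smoc2* 73.0% identical across 1092 bases. The 3 testicans were 68.8% to 74.5% identical to each other, whereas no alignment between a SPARC, SMOC or testican gene and a member of another of these subgroups covered more than 104 bases. No stretch of 50 bases occurred in the transcripts of 2 members. Stretches shared in the same direction with any other gene made up 0.601% of those in *Sparc* and 0.597% of those in *Spock2*, and the other 5 members had none.

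The 7 genes lie on 7 different chromosomes of GRCm38. *Sparc* is on chromosome 11 from 55394500 to 55423183, and its longest coding transcript has 10 exons and 906 coding bases. *Sparcl1* is on chromosome 5 from 104079111 to 104113733 and has the longest coding sequence of the 7, with 1950 bases in 11 exons. *Smoc1* is on chromosome 12 from 81026808 to 81186414 and *Smoc2* on chromosome 17 from 14279506 to 14404790, each with 13 exons in its longest coding transcript. Of the testicans, *Spock1* is on chromosome 13 from 57421195 to 57908332, *Spock2* on chromosome 10 from 60106219 to 60135198, and *Spock3* on chromosome 8 from 62951009 to 63357103. *Spock1* and *Spock3* span 487138 and 406095 bases, more than the other members.

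The family as a whole held 32252 and 15327 CPM in replicates 1 and 2, or 3.23% and 1.53% of all CPM. *Sparc* made up 91.3% of the family total in replicate 1 and 87.2% in replicate 2, and *Smoc2* made up 8.34% and 11.0%. The 3 testicans together reached only 1.502 and 1.83 CPM in replicates 1 and 2. Of the 7 members, 5 averaged 1 CPM or more (against 53.5% of all genes), and *Spock1* and *Spock3* did not. As these libraries are bulk samples, fewer cells of a type and less RNA per cell cannot be told apart.

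**Figure D1:**
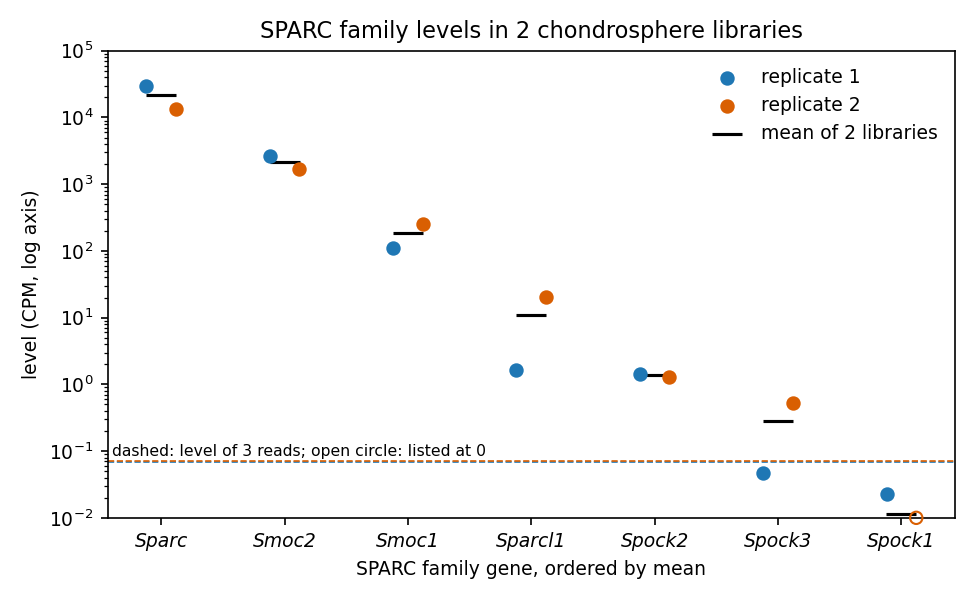
Levels of the 7 SPARC family genes in CPM on a log axis, with 1 point per library, a bar at the mean of both, dashed lines at the level of 3 reads and an open circle for a gene listed at 0. *Sparc*, *Smoc2* and *Smoc1* lie above 100 CPM in both libraries, while *Spock3* in replicate 1 and *Spock1* in both libraries lie below 3 reads.

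*Sparc* was measured at 29449 and 13368 CPM in replicates 1 and 2, averaging 21408 ± 11371 CPM (SD, n = 2). The level in replicate 1 was 2.20 times that in replicate 2, and *Sparc* ranked 3 in the former library and 4 in the latter. By mean, the neighbours in rank were *Col2a1*, the main cartilage collagen, with 124817 CPM at rank 2, and *Acan*, the cartilage proteoglycan aggrecan, with 13086 CPM at rank 4. In replicate 2 it was *Spp1*, which encodes osteopontin, that stood above *Sparc*, with 20524 CPM against 4620 CPM in replicate 1. About 1274573 and 563456 reads lie behind *Sparc*, so counting error was small, and the ratio of replicate 2 to replicate 1 was 0.454 with a 95% counting interval of 0.453 to 0.455. The difference between the libraries is therefore far larger than counting error.

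*Sparcl1* had 1.64 and 20.1 CPM in replicates 1 and 2, averaging 10.9 ± 13.1 CPM (SD, n = 2). These levels rest on 71 and 849 reads, and replicate 2 exceeded replicate 1 by 12.3-fold with a 95% counting interval of 9.63 to 15.9. Among all genes the rank of *Sparcl1* was 11455 in replicate 1 and 5845 in replicate 2. Hevin is known from blood vessels. Endothelial markers summed to 0.565 and 1.76 CPM in replicates 1 and 2 over 8 genes, of which 5 were at 0 in both. The highest of them, *Egfl7*, had 0.195 and 1.49 CPM. The cells had been sorted for the absence of CD31, a marker of endothelial cells, so these values cannot test a vessel source of *Sparcl1*. Markers of nerve and glia summed to 1.87 and 6.79 CPM over 4 genes, led by *Tubb3* with 0.555 and 4.39 CPM. The astrocyte marker *Gfap* had 0.300 and 0.617 CPM. Of the mural cell markers, *Rgs5* had 0.116 and 0.641 CPM, *Acta2* 53.4 and 93.0 CPM, and *Myh11* 0.139 and 0 CPM. The 4 mural markers together had 591 and 713 CPM, mostly *Cspg4* (538 and 619 CPM), which cartilage also expresses. *Gm26703*, annotated on the opposite strand over part of *Sparcl1*, had 0.356 CPM in replicate 2 and no value above 0 in replicate 1. Among the osteoblast and osteocyte markers, *Dmp1* had 0.116 and 40.4 CPM, and *Sost* was at 0 in both libraries. *Sp7* had 1.96 and 6.81 CPM, *Ibsp* 2.24 and 3.27 CPM, and *Bglap2* 1.19 and 1.55 CPM. *Alpl* had 0.462 and 1.92 CPM, *Phex* 0.323 and 0.807 CPM, and *Bglap* 0.0787 and 0.229 CPM. The part of these other markers in the difference in *Sparcl1* was not tested.

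The SMOC genes differed in opposite directions. *Smoc2* had 2690 and 1681 CPM in replicates 1 and 2, averaging 2185 ± 714 CPM (SD, n = 2), and ranked 27 and 42. *Smoc1* had 110 and 256 CPM in replicates 1 and 2, averaging 183 ± 103 CPM (SD, n = 2), and ranked 844 and 381. *Smoc2* was thus the higher gene in both libraries, and *Smoc1* was the one with more in replicate 2. The ratio of replicate 2 to replicate 1 was 0.625 for *Smoc2* (95% counting interval 0.619 to 0.631) and 2.33 for *Smoc1* (2.25 to 2.41). Per kilobase of exon, *Smoc2* stood 12.3-fold above *Smoc1* in replicate 1 but 3.30-fold in replicate 2. *4930474M22Rik*, which lies on the opposite strand within *Smoc2*, had 1.32 and 0.712 CPM. Whether strand was used in counting is not given in the sources used here, so reads of such overlapping pairs may not have been told apart.

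Of the testicans, *Spock2* was the only one with a mean above 1 CPM, at 1.43 and 1.30 CPM in replicates 1 and 2, averaging 1.37 ± 0.0903 CPM (SD, n = 2). These values rest on 62 and 55 reads, and the ratio of replicate 2 to replicate 1 was 0.911 with a 95% counting interval of 0.622 to 1.33, so no difference between the libraries was detectable at this depth. *Spock3* had 0.0462 CPM in replicate 1, which is 2 reads and below the level of 3 reads, and 0.522 CPM in replicate 2, which is 22 reads. The ratio was 11.3 with a 95% counting interval of 2.78 to 99.1. *Spock1* had 0.0231 CPM in replicate 1, the value of 1 read, and stood at 0 in replicate 2, where a count of 0 allows up to 0.0712 CPM. Both of its values are below 3 reads, and no ratio is given.

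Set against all genes, the members with at least 1 CPM differed between the libraries in both directions. With 0.1 CPM added before taking logarithms, the log2 ratio of replicate 2 to replicate 1 had a median of 0.30 over the 12631 genes that averaged 1 CPM or more. On the same scale the log2 ratio was -1.14 for *Sparc*, -0.68 for *Smoc2*, -0.13 for *Spock2*, 1.22 for *Smoc1* and 3.54 for *Sparcl1*. Relative to the median of all genes the values were -1.44, -0.98, -0.43, 0.91 and 3.24 in the same order. The members thus fell into genes lower in replicate 2, namely *Sparc* and *Smoc2*, and genes higher there, namely *Smoc1* and *Sparcl1*.

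More than a 2-fold difference was found for 3 of these 5 members, against 15.1% of all genes tested. *Smoc1* and *Sparcl1* were the 2 past 2-fold higher in replicate 2 (11.4% of all genes), and *Sparc* was the 1 past 2-fold lower (3.71%). Measured from the median ratio, 2 members were past 2-fold, *Sparc* and *Sparcl1*, against 13.5% of all genes. A trimmed mean of log ratios, used as the scaling, moved the median of all genes by -0.28, and scaling by the upper quartile moved it by -0.32, and under both *Smoc1* was no longer past 2-fold, with log2 ratios of 0.93 and 0.89. Under the upper quartile *Smoc2* was just past it, at -1.004. Of all calls, 1435 were higher and 468 lower in replicate 2 by the per-million total, 973 and 732 by the trimmed mean, 926 and 777 by the upper quartile, and 1118 and 646 by a total that omits the 10 highest genes. *Sparcl1* and *Smoc1* stayed higher in replicate 2 under all 4 scalings. *Sparc*, *Smoc2* and *Spock2* stayed lower, but each alternative scaling lowered the ratios, so their direction could not change.

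*Sparc* was also set against the highest genes alone. Of the 68 genes that averaged 1000 CPM or more, 7 (10.3%) were past 2-fold between the libraries. *Ank*, *Col6a3* and *Spp1* were higher in replicate 2, and *Chad*, *Enpp2*, *Sparc* and *Timp3* were lower, and these names were taken from the values themselves. The median log2 ratio of the 68 genes was -0.21, below that of all genes.

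**Figure D2:**
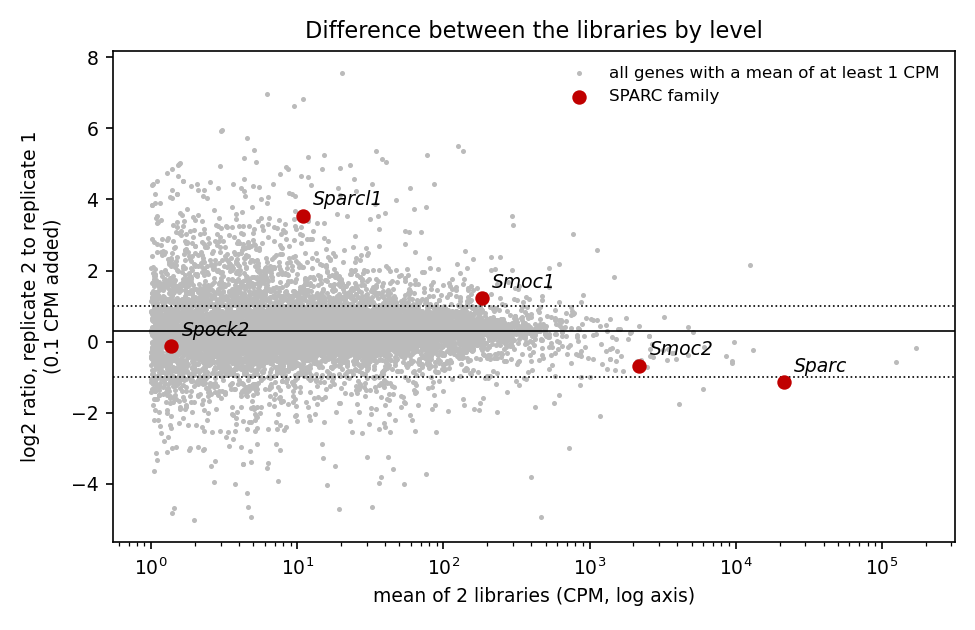
The log2 ratio of replicate 2 to replicate 1, with 0.1 CPM added, is plotted against the mean level in CPM (log axis) for each gene that averages 1 CPM or more (grey) and for the 5 SPARC family genes among them (red), with a solid line at the median of 0.30 and dotted lines at 2-fold. *Sparcl1* at 3.54 and *Smoc1* at 1.22 lie above the upper dotted line, *Sparc* at -1.14 lies below the lower one, and *Smoc2* and *Spock2* lie between them.

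Levels of different genes were compared per length. Per kilobase of merged exons, *Sparc* was at 7774 CPM per kb in replicate 1 and 3529 in replicate 2, and ranked 6 by mean among 23204 genes with a length. *Smoc2* followed at 387 and 242 CPM per kb, *Smoc1* at 31.5 and 73.3, *Sparcl1* at 0.559 and 6.86, and *Spock2* at 0.259 and 0.236. This order was the same in both libraries. *Spock3* was at 0.00764 and 0.0863 CPM per kb, below *Spock2* in both.

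The distance between neighbours in this order was set against its SD over the 2 libraries. *Sparc* exceeded *Smoc2* by a log2 ratio of 4.10 ± 0.33, *Smoc2* exceeded *Smoc1* by 2.67 ± 1.34, and *Smoc1* exceeded *Sparcl1* by 4.62 ± 1.70 (SD, n = 2 each), so each of these steps was larger than its spread. The step down from *Sparc* is a description, since *Sparc* was chosen for its high level. *Sparcl1* exceeded *Spock2* by only 1.11 in replicate 1 but by 4.86 in replicate 2, a mean of 2.99 ± 2.65, and without a correction for length the mean of 2.07 was smaller than its SD of 2.65. *Spock2* exceeded *Spock3* by 3.27 ± 2.57, but per kilobase of the longest coding transcript this step was 2.43 against an SD of 2.57. The lower end of the order, from *Sparcl1* down, is therefore not settled by these libraries. *Smoc2* is the member whose level depends most on the length used, since its merged exons cover 6951 bases and its longest coding transcript 2832.

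**Figure D3:**
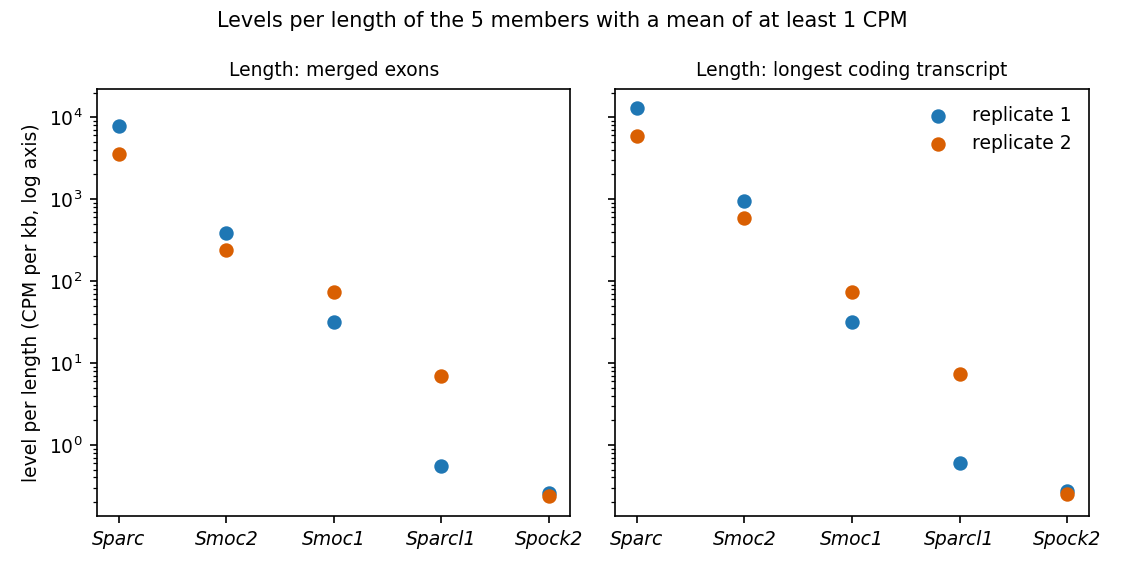
Levels in CPM per kilobase on a log axis for the 5 members that average 1 CPM or more, divided by the merged exons (left) or by the longest coding transcript (right), with 1 point per library. The order from *Sparc* to *Spock2* is the same in both panels and both libraries, and *Sparcl1* shows the widest gap between the libraries, from 0.559 to 6.86 CPM per kb of merged exons.

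Ratios between genes within a library do not depend on its scaling, and they were formed for *Sparc* against 3 collagen genes. They were also formed against *Fn1*, *Acan*, *Sox9*, *Smoc2* and *Fstl1*, with SDs of the log2 ratio of 0.68, 0.64, 0.91, 0.33 and 1.44 (n = 2 each). The ratio to *Col1a1* had the smallest SD of all these ratios, and how many of all genes would give an SD as small was not counted. The ratio to *Col1a1*, a chain of collagen I, which SPARC binds, hardly differed between the libraries, with log2 values of 4.66 in replicate 1 and 4.52 in replicate 2 (4.59 ± 0.10, SD, n = 2). *Col1a1* had 1166 and 584 CPM in replicates 1 and 2, so both genes were lower in the latter by about the same factor. Against *Col1a2*, the other chain of collagen I, the log2 ratio was 3.44 and 2.35, and *Col1a2* itself had 2714 and 2620 CPM. Against *Col2a1* it was -2.34 and -2.91. Per kilobase of exon, *Sparc* stood 43.7-fold and 39.7-fold above *Col1a1* and at 0.482 and 0.324 of the level of *Col2a1*. Fibroblast markers, *Col1a1* and *Col1a2* among them, summed to 5396 and 3865 CPM in replicates 1 and 2 over 9 genes. Of these, *Dcn* had 879 and 267 CPM, *Lum* 495 and 240 CPM, and *Pdgfrb* 140 and 152 CPM. *Pdgfra* had 2.03 and 2.71 CPM, *Thy1* 0.208 and 0 CPM, *Dpt* 0.162 and 0.142 CPM, and *Pi16* was at 0 in both. The part of the fibroblast markers in the level of *Sparc* was not tested.

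The genes nearest to each member in both libraries were found by the distance between log2 levels over these 2 libraries. *Sparc* had no close neighbour, the nearest being *Acan* at a distance of 1.07, followed by *mt-Co1* at 1.59 and *Comp* at 1.62. Nearest to *Smoc2* were *Papss2*, which makes the sulphate donor used for cartilage proteoglycans, at 0.10 (2510 and 1714 CPM), the collagen IX gene *Col9a2* at 0.15 (2653 and 1863 CPM) and *mt-Nd4* at 0.25. *Smoc1* lay near *Ugp2* at 0.07, the fibronectin receptor gene *Itga5* at 0.07 (107 and 266 CPM) and *Aldh2* at 0.10. The neighbours of *Sparcl1* were *Kctd12* at 0.09, *Atp1b1* at 0.22 and *Cyp26b1*, which degrades retinoic acid, at 0.22 (1.73 and 17.4 CPM). *Spock2* was nearest to *AC169509.1*, *Ankrd9* and *1700030J22Rik*, at 0.02 to 0.03. With 2 libraries such likeness is a description of level only.

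Among the collagens that SPARC binds and the fibril genes beside them, all 9 averaged at least 10 CPM, with a median of 875 CPM against 1.63 CPM over all genes listed. The highest were *Col2a1*, *Col11a1* (9755 and 7347 CPM) and *Col1a2*. Between the libraries 0 of the 9 were past 2-fold (15.1% of all genes), with *Col1a1* nearest at a log2 ratio of -0.999. Measured from the median ratio, or under each of the other 3 scalings, *Col1a1* was the 1 past 2-fold lower in replicate 2. A list of SPARC binding partners, receptors and crosslinking genes also held genes that are not partners of SPARC itself, such as *Serpinh1*. It covered 10 genes with values, of which 8 averaged at least 1 CPM, with a median of 145 CPM. *Serpinh1*, the collagen chaperone HSP47, had 2403 and 2712 CPM, the perlecan gene *Hspg2* 1360 and 1495 CPM, and *Itgb1*, the shared beta chain of collagen and fibronectin receptors, 408 and 760 CPM. Past 2-fold were 3 of these 8 genes (15.1% of all genes), namely *Itgb3* (18.8 and 108 CPM) and *Itgav* (88.0 and 360 CPM), higher in replicate 2 and together a receptor of vitronectin, and *Vcam1* (35.6 and 14.9 CPM), lower there. The scavenger receptor genes *Stab1* and *Stab2*, of which the former clears SPARC in macrophages, were at most 0.208 CPM. *Vtn* and *Plg* were not analysed here, nor were *Mmp7*, *Fstl4*, *Fstl5* and *Cpamd8* of the lists that follow.

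Proteases that can cleave SPARC or hevin were led by *Mmp2* (372 and 477 CPM), the cathepsin B gene *Ctsb* (380 and 372 CPM) and *Mmp14* (84.6 and 234 CPM). Of 8 genes with values, 6 averaged at least 1 CPM, and 3 of these were past 2-fold (15.1% of all genes), each higher in replicate 2, the direction of 75.4% of all calls. The count and direction were the same from the median ratio and under the other 3 scalings. These were *Mmp14*, *Mmp13*, the collagenase of hypertrophic cartilage, with 8.96 and 44.8 CPM, and *Mmp3* with 1.09 and 8.13 CPM. *Mmp9* stood at 0 in replicate 2, with 0.0693 CPM in the other library. Of the 6 proteases listed beside the testicans, *Mmp2* and *Ctsk* encode neither cathepsin L nor a membrane-type enzyme. In this list 5 averaged at least 10 CPM, with a median of 143 CPM, and the testicans themselves reached at most 1.43 CPM in either library. *Ctsl*, which encodes cathepsin L, had 120 and 303 CPM, and *Mmp16* 25.7 and 30.5 CPM.

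Genes of the BMP pathway were examined beside the SMOCs. Of 17 genes, 15 averaged at least 1 CPM, and the median was 36.5 CPM. The highest were the receptor genes *Bmpr2* (57.5 and 129 CPM) and *Bmpr1a* (51.9 and 68.5 CPM) and the BMP target *Id1* (46.5 and 114 CPM). Past 2-fold were 6 of these 15 genes (15.1% of all genes), 5 of them higher in replicate 2 and 1 lower. This split depended on the scaling, since from the median ratio 2 were past 2-fold higher, *Bmp2* and *Bmp7*, and 3 lower, *Grem1*, *Nog* and *Chrd*. The upper quartile gave the same 2 and 3 genes, and the other 2 scalings gave 3 higher and 2 lower. The largest difference was in the ligand gene *Bmp7*, with 0.531 and 23.1 CPM. *Bmp7* averaged 1 CPM or more only through replicate 2, so the filter itself fixed its call as higher there by the per-million total. *Bmp2* followed, with 2.26 and 78.6 CPM, and the others past 2-fold higher by the per-million total were *Bmpr2*, *Id1* and *Id2* (29.8 and 64.6 CPM). *Grem1*, which encodes a secreted BMP antagonist, was lower in replicate 2, with 57.3 and 25.5 CPM, and the antagonist genes *Nog* (14.8 and 7.52 CPM) and *Chrd* (13.1 and 7.95 CPM) had log2 ratios of -0.97 and -0.72. The ligand BMP4 was added to the culture medium, whereas *Bmp4* RNA had 0.0231 and 0.546 CPM. *Bmp2*, *Id2*, *Grem1*, *Nog*, *Chrd*, *Bmp4*, *Itgav*, *Vcam1*, *Mmp3*, *Mmp9* and *Mmp16* fell outside the rule for named genes and were picked after their values were seen.

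The core proteins of heparan sulphate proteoglycans, to which SMOCs bind, had a median of 172 CPM, and 9 of 10 averaged at least 10 CPM. *Sdc3* was the highest with 1727 and 2065 CPM, followed by *Hspg2* and by *Gpc1* with 297 and 281 CPM, while *Gpc4* was the 1 of 9 past 2-fold (15.1% of all genes) with 17.1 and 51.6 CPM. Other genes with a follistatin domain were lower than *Sparc* throughout, which is a description only, since *Sparc* was chosen for its high level. *Fstl1*, a secreted relative of SPARC, was the highest of 6 with 128 and 239 CPM, followed by *Agrn* with 192 and 141 CPM and *Tmeff1* with 44.7 and 69.7 CPM. Past 2-fold were 0 of the 6, against 15.1% of all genes.

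SPARC is classed as a matricellular protein, a matrix protein that modulates cells more than it builds structure. Of 15 other matricellular genes, 13 averaged at least 1 CPM, with a median of 113 CPM. *Spp1* was the highest by mean, followed by *Comp* (11098 and 7669 CPM) and the thrombospondin gene *Thbs1* (4022 and 5404 CPM). In CPM *Sparc* was above all 15 in replicate 1 and second to *Spp1* in replicate 2, and the same places were found per kilobase of exon. As *Sparc* was chosen for its high level, these places are a description and not a finding.

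**Figure D4:**
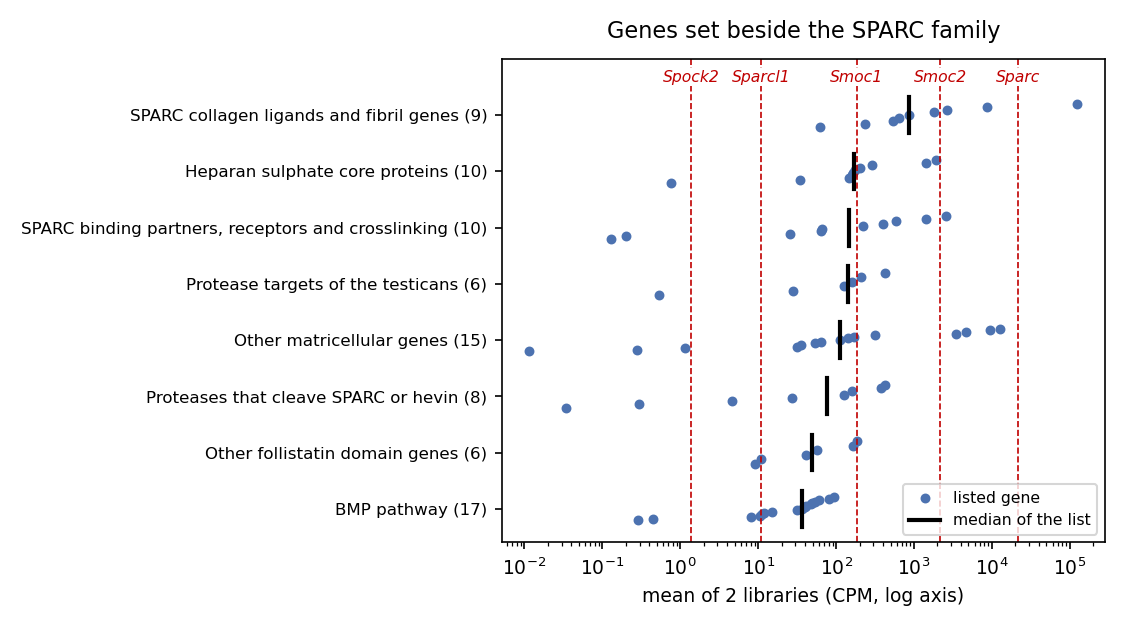
Mean level of both libraries in CPM (log axis) for the genes of 8 lists set beside the SPARC family, with 1 point per gene, a black bar at the median of each list and dashed lines at 5 members. *Sparc*, which was chosen for its high level, lies to the right of every listed gene apart from *Col2a1*, and the median of each list lies above *Sparcl1* and *Spock2*.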

How the data were processed

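RNA-sequencing values of 2 libraries of SOX9-GFPhi chondrospheres were used. The authors selected poly(A) RNA, made stranded libraries and sequenced single-end reads of 50 bases. Per the labels, reads were aligned to GRCm38 (mm10) with STAR 2.7.3a in Partek 10.0.21.0801, and the methods name GENCODE M25 and Partek E/M. The deposited values are counts scaled to a common library total (CPM) to which 0.0001 was added, and this offset was subtracted. Whether strand was used in counting is not given in the sources used here.

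Only 64.8% and 64.0% of the values under 20 steps were whole multiples of the step, within 0.02 of it, in replicates 1 and 2, so no count model was fitted over all genes. The step is the most frequent value above 0, and the reads behind a value are its CPM divided by that step. For log2 ratios 0.1 CPM was added as a pseudocount, which understates the changes of low genes. Counting intervals of the members are binomial (Clopper-Pearson) at 95% on reads rounded to whole numbers. They assume whole counts, which not all low values are, and reads without molecular identifiers are not independent molecules.

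Lengths and positions come from GENCODE M21 on GRCm38, which matched 23204 of 23628 symbols (98.2%), older symbols included. Members and lists were chosen with earlier results of these data known. Named genes were all members, their neighbours in rank, the 3 genes nearest to each member, and per list the 3 highest and the 1 with the largest difference between libraries. On simulated libraries of 12631 genes, 100% of 200 genes changed 4-fold were found past 2-fold. These libraries held counting noise only, and 0 unchanged genes passed 2-fold in them, against 15.1% of all genes here. The simulation therefore checks the code and not the 2-fold call. Alternatives covered scaling, pseudocount, filter, length and leaving out each library. Tables were handled with pandas 2.3.3 and numpy 2.4.6 in Python 3.11.15, intervals came from scipy 1.17.1, alignments from biopython 1.88 and figures from matplotlib 3.10.9.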

Additional observations from a re-analysis of the deposited data

How the results depend on the processing

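Changing 1 choice at a time gave 153 further values for 40 results. The shift stayed within the spread of both libraries (for counts, within 1.5 times) in 141 of them and went beyond it in 12, while 0 reversed. Leaving 1 of 2 libraries out of a mean stays within 1 SD by arithmetic and shows no stability.

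A total that omits the 10 highest genes is smaller, and by it the means were 36046 CPM for *Sparc*, 3645 CPM for *Smoc2* and 293 CPM for *Smoc1*. The log2 ratio of *Sparc* to *Smoc2* per kilobase of merged exons, 4.10, was 3.22 without a correction for length and 3.52 with the longest coding transcript. The share of all genes past 2-fold between the libraries was 8.63% among genes that averaged 10 CPM or more. The number of members past 2-fold was 2 with the trimmed mean of log ratios and 3 with each other scaling and pseudocount, but under the upper quartile *Smoc2* took the place of *Smoc1*. Counts of listed genes past 2-fold were also taken under the other scalings and from the median ratio, a choice made after seeing the data. That of the collagens was 1 in place of 0 from the median ratio, without the 10 highest genes, with the trimmed mean of log ratios and with the upper quartile, and the counts of the other 7 lists stayed within 1.5 times. The low levels of *Spock1* and *Spock3* are limited by depth. The cause of the other changes was not tested.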

Other observations

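Among the genes that averaged 1000 CPM or more, those past 2-fold beside *Sparc* and *Spp1* had lower mean levels than *Sparc*. *Enpp2*, which encodes autotaxin, had 1898 and 447 CPM in replicates 1 and 2, and *Chad*, which encodes the cartilage matrix protein chondroadherin, had 6362 and 1891 CPM. *Timp3*, an inhibitor of metalloproteinases held in the matrix, had 8619 and 3411 CPM. In the opposite direction, *Ank*, a gene of pyrophosphate export, had 321 and 1933 CPM, and *Col6a3* had 646 and 2299 CPM. These genes were named after their values were seen.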
